A study of Mus musculus with 18 samples.

Results

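Homing and trafficking receptors steer B cells between blood, the splenic follicle, its outer edge and its border with the T cell zone. The set described here was 8 genes chosen by symbol: the chemokine receptors Cxcr4, Cxcr5, Ccr7, Ccr6 and Cxcr3, the sphingosine 1-phosphate receptors S1pr1 and S1pr4, and the oxysterol receptor Gpr183. They are 8 of the 28096 genes counted, and all 8 were among the 14161 genes that passed the expression filter and were tested. No measured value entered the rule that names them, but they were chosen with earlier results of these data known. Positions are given on GRCm38.

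All of these proteins span the membrane as G protein-coupled receptors. CXCR5 draws B cells to CXCL13 in the follicle, CCR7 to CCL19 and CCL21 at the T cell zone, and CXCR4 to CXCL12. GPR183, also called EBI2, follows 7α,25-dihydroxycholesterol to the follicle edge, and S1PR1 reads the sphingosine 1-phosphate of blood and lymph, which lets lymphocytes leave a tissue. When the B cell receptor or Toll-like receptor 4 is engaged, B cells relocate in the spleen and the balance of these receptors is known to change.

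The samples were 18 RNASeq libraries of B cells isolated from the spleen of C57BL/6 N mice at least 8 weeks old. WT cells and Ubqln1-/- cells, which lack exon 2 of Ubqln1 in the germline, a deletion made in embryonic stem cells, were kept for 4 hr without stimulus (resting), with F(ab)2 anti-IgM at 10 μg/mL, which crosslinks the B cell receptor, or with 20 μg/mL LPS from E. coli K12, a ligand of Toll-like receptor 4. There were 3 libraries in each of the 6 groups, and each was made from RNA pooled over triplicate wells. They are described as biological replicates, but the labels tie no library to an animal, so the spread between them may be partly technical. In bulk RNA, fewer cells of a type and less RNA per cell cannot be told apart.

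The smallest library held 15368941 counts over exons, the median one 23257531 and the largest 41072854. Every WT LPS library was larger than every Ubqln1-/- LPS library. Ubqln1, counted over all of its exons, was at 62.3 to 92.0 RPKM (counts scaled to exon length and to the TMM-scaled library size) in the 9 WT libraries and at 24.8 to 34.8 RPKM in the 9 Ubqln1-/- libraries. All 6 of 6 B cell markers were detected. Their level is in CPM, counts scaled to the TMM-scaled library size and not to exon length. It summed to 6911 to 8366 CPM at rest, 2196 to 2829 CPM with anti-IgM and 5463 to 6577 CPM with LPS. The 7 T cell markers summed to 1.25 to 6.30 CPM and the 5 NK cell markers to 0 to 0.598 CPM. The 6 myeloid markers summed to 19.7 to 45.0 CPM in resting and 10.1 to 18.8 CPM in stimulated libraries.

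Sequence upstream of the gene start was at hand for 5 of the 8 genes, from RefSeq on GRCm38.p6, and not for Ccr7, Cxcr5 or S1pr1. The 250 bases are given for S1pr4 and Cxcr4, which fell with both stimuli, and for Gpr183, which rose with both. Capitals mark every match, on either strand, to CACCC (KLF), GTAAACA (FOXO), TGANTCA (AP-1), GCGTGGG (EGR), GGAAAA (NFAT) or the NF-kB consensus.
S1pr4, chr10:81500138-81500387, minus strand: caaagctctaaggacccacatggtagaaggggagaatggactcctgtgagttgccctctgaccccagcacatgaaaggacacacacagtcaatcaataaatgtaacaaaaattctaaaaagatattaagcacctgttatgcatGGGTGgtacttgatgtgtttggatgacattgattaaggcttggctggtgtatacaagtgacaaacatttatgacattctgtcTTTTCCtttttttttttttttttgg
Cxcr4, chr1:128592300-128592549, minus strand: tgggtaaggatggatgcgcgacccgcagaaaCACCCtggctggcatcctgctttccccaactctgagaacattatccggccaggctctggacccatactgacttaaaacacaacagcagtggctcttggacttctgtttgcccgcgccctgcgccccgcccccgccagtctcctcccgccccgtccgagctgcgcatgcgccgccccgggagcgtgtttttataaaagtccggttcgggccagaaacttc
Gpr183, chr14:121965194-121965443, minus strand: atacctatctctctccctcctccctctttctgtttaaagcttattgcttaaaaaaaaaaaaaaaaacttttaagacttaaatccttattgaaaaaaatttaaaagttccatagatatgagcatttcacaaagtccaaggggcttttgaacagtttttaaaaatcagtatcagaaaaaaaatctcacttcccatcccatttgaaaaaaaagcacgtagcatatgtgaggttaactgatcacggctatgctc
The S1pr4 window held 1 KLF match and 1 NFAT match, the Cxcr4 window held 1 KLF match, and the Gpr183 window held none. Of the windows not printed, that of Cxcr3, which fell with anti-IgM, held 0 matches. The Ccr6 window at chr17:8242276-8242525 held 2 NF-kB matches, and the Ccr6 window at chr17:8235793-8236042 held 0. Over all 32851 such windows, 52.0% held the KLF letters, 20.4% the NFAT letters, 6.75% the AP-1 letters, 4.30% the EGR letters, 3.90% the NF-kB consensus and 3.17% the FOXO letters. Each match is a description of the letters.

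In resting WT cells Cxcr4 was the highest of the 8 genes, and Cxcr3 was the lowest. The order of mean RPKM was Cxcr4 (486 ± 72.3, SD, n = 3), Ccr7 (215 ± 35.5), Cxcr5 (165 ± 14.8), S1pr1 (146 ± 15.6), S1pr4 (89.3 ± 11.6), Ccr6 (64.7 ± 21.0), Gpr183 (43.6 ± 7.75) and Cxcr3 (4.11 ± 2.55). The libraries of Ccr7 and Cxcr5 overlapped, as did those of Cxcr5 and S1pr1, of S1pr4 and Ccr6, and of Ccr6 and Gpr183. After anti-IgM, Cxcr4 (338 ± 16.4 RPKM) and Ccr7 (309 ± 47.0 RPKM) overlapped at the top. After LPS the order at the top changed to Ccr7 (442 ± 98.6 RPKM) and Cxcr5 (390 ± 28.5 RPKM), which overlapped each other and were both above Cxcr4 (185 ± 53.1 RPKM). The Ubqln1-/- libraries had the same gene at the top in each condition.

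**Figure D1:**
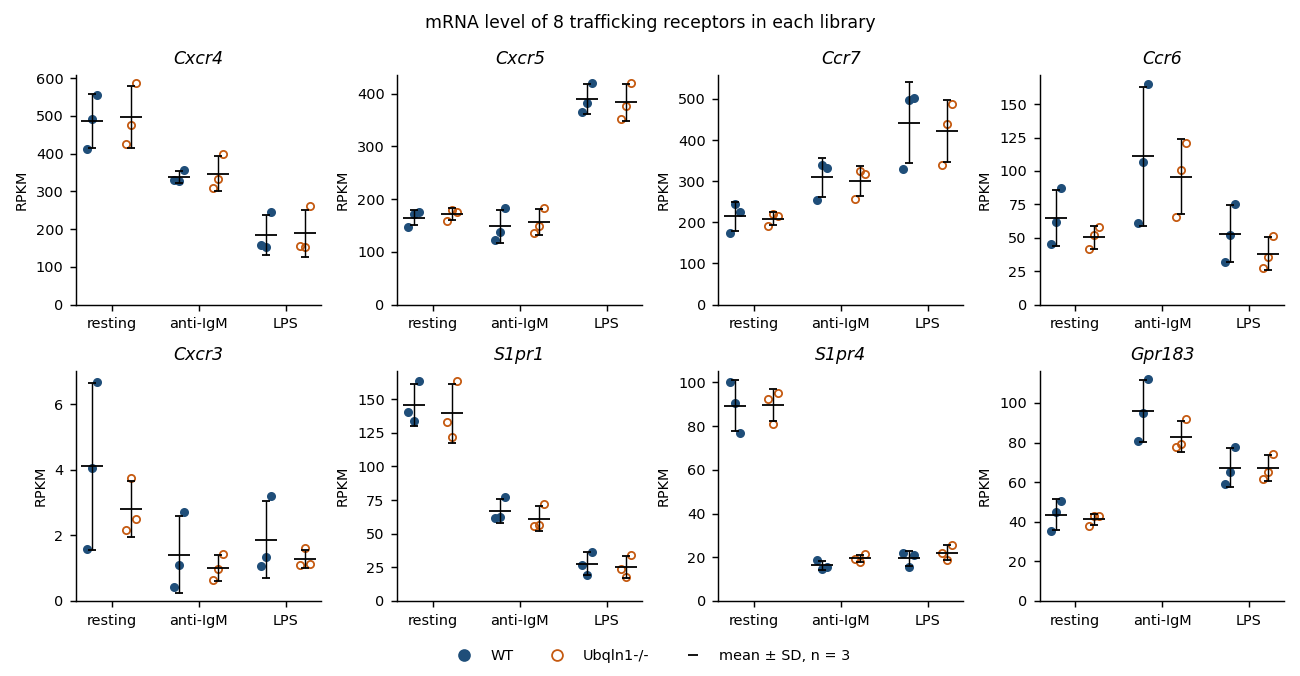
The mRNA level (RPKM) of the 8 receptors in each library, with filled points for WT, open points for Ubqln1-/-, and bars for the mean ± SD of 3 libraries. S1pr4 and S1pr1 are lower in every stimulated library than in any resting library, and Cxcr5 is higher in every LPS library than in any other.

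With anti-IgM, 6 of 8 receptors passed an adjusted p of 0.05 in WT cells, 2 higher and 4 lower (edgeR quasi-likelihood test, Benjamini-Hochberg over all tested genes). In Ubqln1-/- cells 7 passed, 3 higher and 4 lower. The background was broad, since 64.6% of all tested genes passed in WT cells (32.4% higher and 32.2% lower) and 65.3% in Ubqln1-/- cells (32.9% higher and 32.4% lower), so these shares were read against a majority of genes called. With LPS, 6 of 8 passed in each genotype, 3 higher and 3 lower, against 61.2% of all genes in WT cells (31.2% higher and 30.1% lower) and 60.7% in Ubqln1-/- cells (30.6% higher and 30.2% lower). In Ubqln1-/- cells with anti-IgM, 4 receptors (Cxcr3, S1pr1, S1pr4 and Gpr183) also passed an absolute log2 fold change of 1, against 20.3% of all genes. The same receptors passed it in WT cells, where the smallest of these changes, that of S1pr1, was larger in size than 82.1% of all genes. With LPS, Ccr7, Cxcr4, Cxcr5, S1pr1 and S1pr4 passed it in each genotype. The smallest of these changes, that of Ccr7, was larger in size than 84.7% of all genes in WT and 83.2% in Ubqln1-/- cells. The median absolute log2 fold change of the 8 was 0.95 with anti-IgM and 1.21 with LPS in WT cells, beside 0.47 and 0.42 over all tested genes. All 4 responses were set against the resting libraries of their own genotype, so the anti-IgM and LPS responses share controls. The lower summed level of B cell markers with anti-IgM stands beside the anti-IgM responses, and its part in them was not tested.

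**Figure D2:**
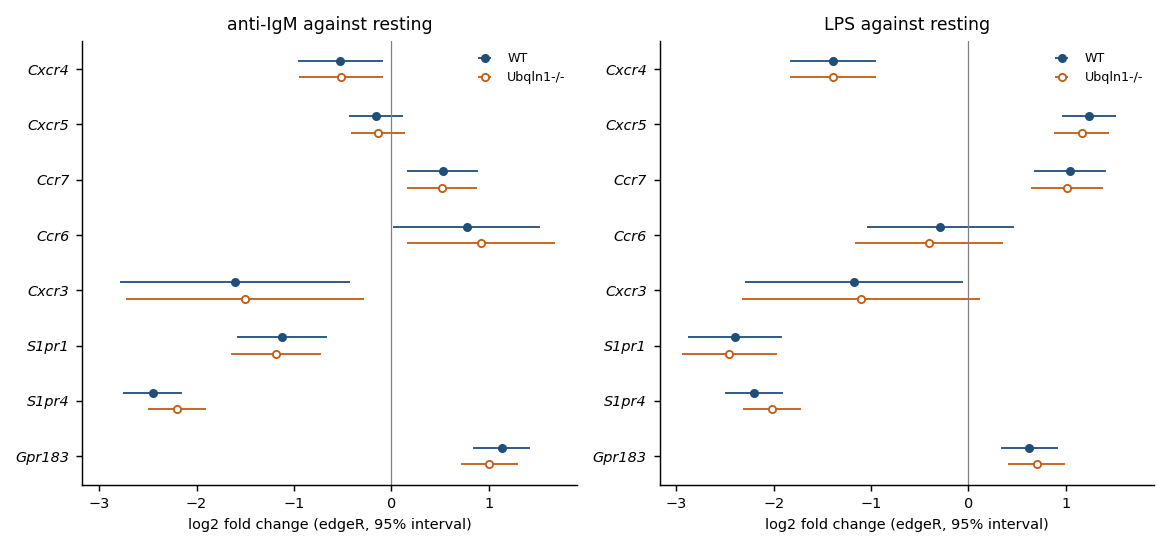
Log2 fold change of each receptor with anti-IgM (left) and LPS (right) against resting cells, with its 95% interval, in WT (filled) and Ubqln1-/- (open) cells. S1pr4 and S1pr1 fall and Gpr183 rises with both stimuli, while Cxcr5 rises with LPS and has intervals that include 0 with anti-IgM.

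S1pr4 (Entrez 13611, chr10:81497745-81500137, minus strand), a sphingosine 1-phosphate receptor of lymphocytes, had the largest fold change of the 8 with anti-IgM. Its level in WT cells was 100, 90.6 and 77.1 RPKM at rest, 18.8, 14.7 and 15.4 RPKM with anti-IgM, and 21.7, 15.7 and 20.8 RPKM with LPS. The Ubqln1-/- level was 92.3, 81.2 and 95.4 RPKM at rest, 19.3, 17.9 and 21.3 RPKM with anti-IgM, and 22.1, 18.6 and 25.7 RPKM with LPS. Every stimulated library was below every resting one. The log2 fold change was -2.45 ± 0.14 (SE) with anti-IgM in WT cells (adjusted p = 8.46e-10), a 5.47-fold fall, and -2.20 ± 0.14 in Ubqln1-/- cells (adjusted p = 2.12e-09). With LPS it was -2.20 in WT and -2.02 in Ubqln1-/- cells. S1pr4 was past the cut-offs used in the study, an absolute log2 fold change over 2 with an adjusted p under 0.001, in all 4 responses. The LPS response of Ubqln1-/- cells lay close to them, and was under a log2 size of 2 without resting library 1 (-1.99) or 3 (-1.97), without LPS library 2 (-1.91) and with no expression filter (-1.99). Those cut-offs took 3.76% and 3.64% of all genes with anti-IgM, and 1.8% and 1.74% with LPS, in WT and Ubqln1-/- cells. LPS and anti-IgM did not differ at the threshold for S1pr4 in WT cells (log2 difference 0.25, adjusted p = 0.195), although without the second WT LPS library the difference was 0.38 with an adjusted p of 0.0432.

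S1pr1 (Entrez 13609, chr3:115710433-115715055, minus strand), the egress receptor, also fell with both stimuli, and further with LPS. WT cells had 140, 134 and 163 RPKM at rest, 61.5, 62.3 and 77.1 RPKM with anti-IgM, and 26.7, 19.6 and 36.6 RPKM with LPS. The Ubqln1-/- values were 133, 122 and 164 RPKM at rest, 55.6, 56.2 and 72.0 RPKM with anti-IgM, and 24.0, 18.0 and 34.4 RPKM with LPS. The 3 conditions did not overlap in either genotype. The fall was 2.18-fold with anti-IgM (log2 fold change -1.12 ± 0.22, SE, adjusted p = 0.000249) and 5.28-fold with LPS (-2.40 ± 0.23, adjusted p = 1.86e-07) in WT cells. The log2 fold changes in Ubqln1-/- cells were -1.19 and -2.46. The level with LPS was below that with anti-IgM by a log2 difference of -1.28 in WT cells (adjusted p = 0.00023) and -1.27 in Ubqln1-/- cells (adjusted p = 0.000284). S1pr1 passed the study cut-offs with LPS in both genotypes.

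Gpr183 (Entrez 321019, chr14:121952331-121965193, minus strand, inside the Ubac2 gene without sharing an exon) rose with both stimuli. WT cells had 35.2, 45.1 and 50.5 RPKM at rest, 80.9, 94.8 and 112 RPKM with anti-IgM, and 58.8, 65.1 and 77.9 RPKM with LPS. Ubqln1-/- cells had 38.0, 43.0 and 42.7 RPKM at rest, 77.6, 79.5 and 91.8 RPKM with anti-IgM, and 61.8, 64.9 and 74.5 RPKM with LPS. Every stimulated library was above every resting library of its genotype. The rise was 2.20-fold with anti-IgM (log2 fold change 1.14 ± 0.14, SE, adjusted p = 1.82e-06) and 1.54-fold with LPS (0.62 ± 0.14, adjusted p = 0.000865) in WT cells, and 2.01-fold and 1.63-fold in Ubqln1-/- cells. The level with LPS was lower than with anti-IgM in WT cells by a log2 difference of -0.51 (adjusted p = 0.00767), a call lost without the third WT anti-IgM library (-0.38, adjusted p = 0.0561). In Ubqln1-/- cells that difference was -0.31 (adjusted p = 0.101), and -0.31 with an adjusted p of 0.000547 with the replicate number as a block. It also passed with a fit of only the compared groups (-0.32, adjusted p = 0.0203).

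Cxcr5 (Entrez 12145, chr9:44511787-44526444, minus strand), the follicular receptor, rose with LPS. WT cells had 148, 171 and 176 RPKM at rest, 123, 139 and 183 RPKM with anti-IgM, and 366, 383 and 421 RPKM with LPS. Cxcr5 in Ubqln1-/- cells was at 159, 180 and 176 RPKM at rest, 136, 148 and 184 RPKM with anti-IgM, and 352, 377 and 421 RPKM with LPS. All LPS libraries were above all others, and the anti-IgM and resting libraries overlapped. The rise with LPS was 2.36-fold in WT cells (log2 fold change 1.24 ± 0.13, SE, adjusted p = 6.28e-07) and 2.24-fold in Ubqln1-/- cells (1.16 ± 0.13, adjusted p = 1.28e-06). With anti-IgM the log2 fold change was -0.16 ± 0.13 in WT cells (adjusted p = 0.311), and the call changed without the third WT anti-IgM library (-0.33, adjusted p = 0.0277) and with a replicate block (-0.17, adjusted p = 0.0399). The exons of Cxcr5 overlap those of Bcl9l on the other strand and the library kit does not mark strand, so reads in the overlap cannot be told apart. Bcl9l was at 16.3 to 21.9 RPKM in resting, 3.60 to 5.09 RPKM in anti-IgM and 24.3 to 31.1 RPKM in LPS libraries of WT cells. In the same order, these libraries held 1713 to 2347, 508 to 537 and 4640 to 5110 counts of Bcl9l. Cxcr5 had 6057 to 11479, 8082 to 9562 and 29595 to 39403 counts. The part of Bcl9l in the Cxcr5 values was not tested. The 5 dendritic cell markers were also higher in sum with LPS, at 41.9 to 72.5 CPM beside 13.7 to 31.8 CPM in the other libraries. Over all libraries, Zbtb46 ran from 4.09 to 42.0 CPM and Flt3 from 6.09 to 24.7 CPM. Itgax, Xcr1 and Siglech reached at most 5.93, 2.08 and 0.319 CPM, so the sum did not follow all 5 markers alike. The 2 follicular B cell markers summed to 1816 to 2609 CPM with LPS beside 619 to 977 CPM. Of those 2, Cr2 stayed under 429 CPM in every library, while Fcer2a ran from 294 to 2213 CPM. The part of these markers in the result was not tested.

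Ccr7 (Entrez 12775, chr11:99144199-99155077, minus strand), the receptor for the T cell zone chemokines, rose with both stimuli. WT cells had 175, 244 and 225 RPKM at rest, 255, 340 and 333 RPKM with anti-IgM, and 329, 497 and 502 RPKM with LPS. Ubqln1-/- cells had 191, 219 and 216 RPKM at rest, 257, 325 and 318 RPKM with anti-IgM, and 339, 439 and 487 RPKM with LPS. Stimulated and resting libraries did not overlap, while those of the 2 stimuli overlapped in WT cells. LPS gave a 2.06-fold rise in WT cells (log2 fold change 1.04 ± 0.17, SE, adjusted p = 6.6e-05) and a 2.02-fold rise in Ubqln1-/- cells. Anti-IgM gave a 1.44-fold rise in each, with an adjusted p of 0.013 in WT cells and 0.0136 in Ubqln1-/- cells. Those calls were lost without the first resting library of the genotype (0.39, adjusted p = 0.0739 in WT and 0.47, adjusted p = 0.0507 in Ubqln1-/- cells). The level with LPS was above that with anti-IgM by 0.52 in WT (adjusted p = 0.0287) and 0.49 in Ubqln1-/- cells (adjusted p = 0.0381). In WT cells this call was lost without the first anti-IgM library (0.39) or LPS library 2 (0.42) or 3 (0.41), and with a fit of only the compared groups (0.51, adjusted p = 0.08). In Ubqln1-/- cells it was lost without any 1 of the 3 anti-IgM libraries (0.39, 0.55 and 0.53) or without LPS library 2 (0.46) or 3 (0.38).

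Since Ccr7 and Cxcr5 pull B cells to neighbouring zones, their levels were set against each other within each library, a ratio chosen after the values were seen that does not depend on library scaling. Ccr7 over Cxcr5 was 1.18, 1.42 and 1.28 in resting, 2.07, 2.46 and 1.82 in anti-IgM and 0.899, 1.30 and 1.19 in LPS libraries of WT cells. The ratio in Ubqln1-/- cells was 1.20, 1.22 and 1.23 at rest, 1.89, 2.19 and 1.73 with anti-IgM and 0.963, 1.16 and 1.16 with LPS. Every anti-IgM ratio was above every other ratio. The log2 difference from rest with anti-IgM was 0.70 in WT and 0.66 in Ubqln1-/- cells (exact two-sided permutation p = 0.1 in each, the smallest that 3 against 3 allows). With LPS it was -0.21 in WT cells (exact permutation p = 0.5) and -0.16 in Ubqln1-/- cells (exact permutation p = 0.1). The ratio was chosen from these same values, so these p-values only describe them. Reads in the exons that Cxcr5 shares with Bcl9l also enter the ratio, and their part was not tested.

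**Figure D3:**
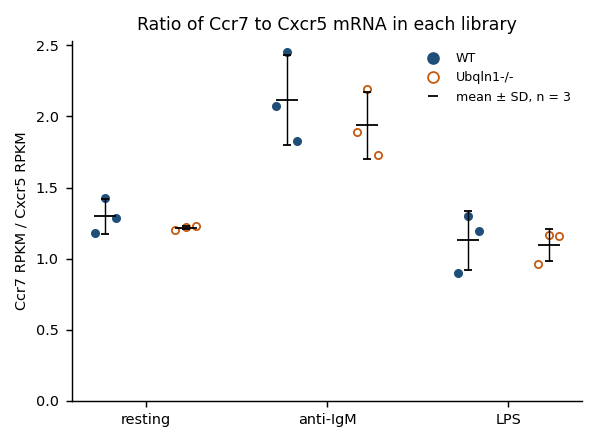
Ratio of Ccr7 RPKM to Cxcr5 RPKM in each library, by condition, with filled points for WT, open points for Ubqln1-/-, and bars for the mean ± SD of 3 libraries. The anti-IgM libraries of WT cells sit between 1.82 and 2.46, above the resting ones at 1.18 to 1.42.

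Cxcr4 (Entrez 12767, chr1:128588199-128592299, minus strand), the CXCL12 receptor, fell with LPS and less with anti-IgM. WT cells had 411, 491 and 555 RPKM at rest, 331, 327 and 357 RPKM with anti-IgM, and 157, 152 and 246 RPKM with LPS. Cxcr4 in Ubqln1-/- cells was at 426, 477 and 587 RPKM at rest, 310, 333 and 398 RPKM with anti-IgM, and 154, 153 and 260 RPKM with LPS. The 3 conditions did not overlap in either genotype. The fall with LPS was 2.63-fold in both genotypes, with an adjusted p of 2.41e-05 in WT cells and 2.5e-05 in Ubqln1-/- cells. The fall with anti-IgM was 1.44-fold in WT cells (log2 fold change -0.52 ± 0.21, SE, adjusted p = 0.035) and 1.43-fold in Ubqln1-/- cells (adjusted p = 0.0364). The WT call held without the first resting library, and was lost without resting library 2 or 3 (-0.50 and -0.41) or any 1 of the 3 anti-IgM libraries (-0.50, -0.49 and -0.56). The Ubqln1-/- call was lost without resting library 2 or 3 (-0.54 and -0.38) or the first or second anti-IgM library (-0.43 and -0.48). LPS libraries were lower than anti-IgM libraries by a log2 difference of -0.87 in WT (adjusted p = 0.00352) and -0.88 in Ubqln1-/- cells (adjusted p = 0.00355).

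Ccr6 (Entrez 12458, chr17:8236041-8258519, plus strand), the CCL20 receptor, spread widely between libraries of a group. WT cells had 45.2, 62.0 and 86.9 RPKM at rest, 61.3, 107 and 165 RPKM with anti-IgM, and 32.2, 51.9 and 75.1 RPKM with LPS. The Ubqln1-/- libraries held 41.4, 51.7 and 58.4 RPKM at rest, 65.6, 101 and 121 RPKM with anti-IgM, and 27.5, 35.4 and 51.4 RPKM with LPS. Resting and anti-IgM libraries overlapped in WT cells and not in Ubqln1-/- cells. The log2 fold change with anti-IgM was 0.78 ± 0.36 (SE) in WT cells (adjusted p = 0.0663) and 0.92 ± 0.36 in Ubqln1-/- cells (adjusted p = 0.0323). The WT value passed without the third resting library (1.04) or the first anti-IgM library (1.08), and was 0.38 without the third anti-IgM library. The Ubqln1-/- call was lost without the first (0.81) or second (0.95) resting library or anti-IgM library 2 (0.90) or 3 (0.73). With LPS the log2 fold changes were -0.29 (adjusted p = 0.502) and -0.41 (adjusted p = 0.346). With the replicate number as a block they were 0.73 for anti-IgM in WT cells (adjusted p = 1.18e-05), and -0.31 and -0.45 for LPS in WT and Ubqln1-/- cells (adjusted p = 0.0192 and 0.0022).

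Set directly against each other, LPS left less Ccr6 than anti-IgM, with a log2 difference of -1.07 in WT (adjusted p = 0.0297) and -1.33 in Ubqln1-/- cells (adjusted p = 0.00963). The WT call was lost without anti-IgM library 2 (-1.09) or 3 (-0.66) or the first (-0.81) or second (-1.05) LPS library, and with a fit of only the compared groups (-1.07, adjusted p = 0.0966). The Ubqln1-/- call was lost without the first LPS library (-1.15, adjusted p = 0.0502). Over all 8 receptors, 6 passed between LPS and anti-IgM in WT cells and 5 in Ubqln1-/- cells, against 32.4% and 31.3% of all tested genes. With an absolute log2 fold change over 1 as well, 3 passed in each genotype, against 9.42% and 8.73% of all genes, and at the study cut-offs 0 passed, against 2.51% and 2.24%. Cxcr5 had the largest difference in WT cells, 1.40 in WT (adjusted p = 3.34e-07) and 1.30 in Ubqln1-/- cells (adjusted p = 8.81e-07).

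Cxcr3 (Entrez 12766, chrX:101731535-101734147, minus strand), the receptor for interferon-induced chemokines, was the lowest of the 8, with 17 to 216 counts per library. WT cells had 1.59, 4.05 and 6.69 RPKM at rest, 0.422, 1.11 and 2.71 RPKM with anti-IgM, and 1.06, 1.33 and 3.21 RPKM with LPS. Ubqln1-/- cells had 2.15, 3.76 and 2.51 RPKM at rest, 0.642, 0.974 and 1.42 RPKM with anti-IgM, and 1.11, 1.61 and 1.13 RPKM with LPS. The conditions overlapped in WT cells, while in Ubqln1-/- cells all stimulated libraries were below all resting ones. The log2 fold change with anti-IgM was -1.60 ± 0.56 (SE) in WT (adjusted p = 0.0187) and -1.50 ± 0.58 in Ubqln1-/- cells (adjusted p = 0.0311). The WT call was lost without the third resting library (-1.09) or the first (-1.15) or second (-1.45) anti-IgM library, and with a fit of only the compared groups (adjusted p = 0.0555). The Ubqln1-/- call was lost without the second resting library (-1.22) or the first (-1.24) or second (-1.47) anti-IgM library. With LPS the values were -1.17 (adjusted p = 0.0644) and -1.11 (adjusted p = 0.108). The WT value passed without the first resting library (-1.53) or the third LPS library (-1.79) and with limma-voom (-1.21, adjusted p = 0.0416), and both passed with a replicate block (-1.15 and -1.14). The Ubqln1-/- value also passed with a fit of only the compared groups (-1.09, adjusted p = 0.00404). The third WT library of each condition had the highest Cxcr3 and also the highest summed level of 4 plasma cell markers, at 465 CPM at rest, 405 CPM with anti-IgM and 329 CPM with LPS, beside 146 to 290 CPM in the other WT libraries. Their part in the Cxcr3 values was not tested.

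Libraries with the same replicate number tended to share a rank. Ccr6, Ccr7, Cxcr3, Cxcr5 and Gpr183 were each lowest in the library numbered 1 in 6 of 6 groups, and Ccr6, Cxcr4 and S1pr1 were each highest in the library numbered 3 in 6 of 6 groups. Such ranks were not counted over all genes. The 5 marginal zone B cell markers also summed lowest in library 1 of each group, as at 526 beside 732 and 753 CPM in resting WT cells. Their part in the ranks was not tested. Over the 18 libraries, which fall into 6 groups, log2 CPM of Cxcr4 and S1pr1 had a Pearson r of 0.970, and S1pr4 and Gpr183 had an r of -0.899. Other genes were compared among the 9102 with a mean of at least 10 CPM, a number that includes the receptors above that level. The pattern most like that of S1pr4 was Nipal3 (r = 0.995), of S1pr1 Snx30 (r = 0.986) and of Ccr7 Slc20a2 (r = 0.979). For Cxcr4 it was Stk11ip (r = 0.976), for Ccr6 Tgfbr1 (r = 0.949) and for Cxcr3 Nsf (r = 0.890). For Cxcr5 it was Cxcl10 (r = 0.981), a chemokine read by CXCR3. These values share libraries and stimuli and carry no test.

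Loss of Ubqln1 gave no receptor call in any condition. In resting, anti-IgM and LPS cells, 0 of 8 receptors passed between genotypes in edgeR, in limma-voom and in DESeq2, against 0.0565%, 0.0989% and 0.0424% of all tested genes called by edgeR. DESeq2 called 32 of 14160, 47 of 14160 and 51 of 13062 genes, and limma-voom 6, 18 and 5 of 14161. In edgeR 0 of 8 receptors had an unadjusted p under 0.05, against 4.22%, 5.14% and 3.93% of all tested genes. S1pr4 with anti-IgM came nearest, with Ubqln1-/- cells higher by a log2 difference of 0.25 (95% interval -0.04 to 0.55, edgeR adjusted p = 0.997). The difference at rest lay between -0.22 and 0.33 for Cxcr5 and between -0.28 and 0.29 for S1pr4. For Cxcr3 it lay between -1.67 and 0.54, and for Ccr6 between -1.12 and 0.40, so these intervals reached past a 2-fold lower level.

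The response to a stimulus was also compared between genotypes, as an interaction. No receptor passed for anti-IgM or LPS in edgeR, limma-voom or DESeq2, and edgeR called 0% of all genes. In edgeR 0 of 8 receptors had an unadjusted p under 0.05, against 0.989% of all genes for anti-IgM and 1.55% for LPS. The anti-IgM response of S1pr4 differed by 0.25 (95% interval -0.16 to 0.66) and that of Gpr183 by -0.13 (-0.54 to 0.28), in Ubqln1-/- cells against WT. The LPS response of Cxcr5 differed by -0.08 (-0.47 to 0.31). A p that misses the threshold does not show that the genotypes respond alike.

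**Figure D4:**
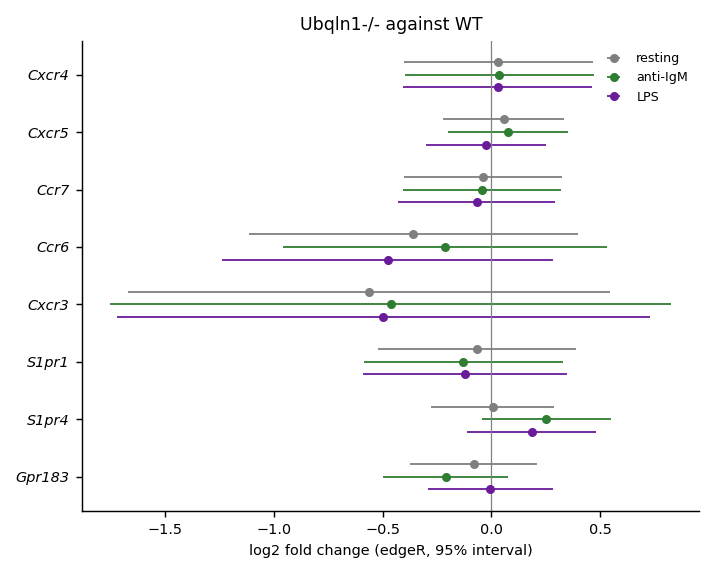
Log2 fold change of each receptor in Ubqln1-/- against WT cells with its 95% interval, in resting, anti-IgM and LPS cells. Every interval includes 0, and those of Cxcr3 and Ccr6 are the widest.

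Other genes of homing were read from lists of related receptors, ligands, signaling, adhesion and transcription factors. Of 6 transcription factors that control homing genes, 5 fell and 0 rose with anti-IgM, and 4 fell and 0 rose with LPS, in each genotype, beside 32.2% of all genes lower with anti-IgM and 30.1% with LPS in WT cells, and 32.4% and 30.2% in Ubqln1-/- cells. Klf2, known as an activator of S1pr1, went from 241, 220 and 191 RPKM in resting WT cells to 57.9, 42.9 and 48.8 RPKM with anti-IgM and 61.2, 49.4 and 67.5 RPKM with LPS. Its log2 fold change was -2.12 with anti-IgM (adjusted p = 2.11e-08) and -1.87 with LPS (adjusted p = 1.34e-07). Foxo1, a regulator of lymphocyte homing genes, fell by 1.41 with anti-IgM and 0.83 with LPS on the log2 scale.

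Of 11 adhesion molecules, 3 rose and 7 fell with anti-IgM in both genotypes, while 4 rose and 6 fell with LPS in WT cells (5 fell in Ubqln1-/- cells). Over all tested genes, 64.6% were called with anti-IgM and 61.2% with LPS in WT cells, and 65.3% and 60.7% in Ubqln1-/- cells. Itgb7 and Itga4, the chains of the gut-homing integrin, changed by -3.35 and -2.28 with anti-IgM. With LPS the adhesion genes Icam1 (2.51), Cd44 (2.15) and Itgal (1.47) rose in WT cells, and Itgb7 fell (-1.69).

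Of 25 genes of receptor signaling and desensitization, 9 rose and 14 fell with anti-IgM in WT cells and 7 rose and 14 fell in Ubqln1-/- cells. With LPS 4 rose and 14 fell in each. The shares of all genes called were again 64.6% and 65.3% with anti-IgM and 61.2% and 60.7% with LPS. Rgs1, which shortens the signal of chemokine receptors, rose by 2.92 with anti-IgM and 0.98 with LPS on the log2 scale in WT cells. Rgs14 (-2.86) and Pik3cg (-2.25), a lipid kinase downstream of these receptors, fell with anti-IgM. Cd69, whose protein binds S1PR1 and takes it off the cell surface, was at 27.6, 36.3 and 43.9 RPKM at rest, 108, 89.1 and 93.5 RPKM with anti-IgM and 179, 178 and 207 RPKM with LPS in WT cells. It rose with both stimuli, by 1.43 and 2.39.

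Of 22 other chemoattractant receptors, 12 were tested, and the 10 left out had at most 8 counts in any library. With anti-IgM 4 rose and 2 fell in each genotype, where 64.6% and 65.3% of all genes were called. S1pr3, a sphingosine 1-phosphate receptor and one of the 5 marginal zone B cell markers used here, was at 1.67, 3.65 and 3.08 RPKM at rest, 20.7, 27.8 and 35.7 RPKM with anti-IgM and 1.27, 2.03 and 2.23 RPKM with LPS in WT cells. Its log2 fold change with anti-IgM was 3.30 in WT cells (adjusted p = 1.59e-08) and 3.29 in Ubqln1-/- cells, in the direction opposite to S1pr1 and S1pr4. Ccr9 (2.98) also rose with anti-IgM in WT cells. S1pr2, which confines germinal centre B cells, was low at 0.721 to 5.56 RPKM over all libraries and passed in none of the 4 responses. With LPS, 2 rose and 4 fell in WT cells and 2 rose and 5 fell in Ubqln1-/- cells, where 61.2% and 60.7% of all genes were called, and Ackr3 (3.16) and Ccrl2 (2.58) were the ones that rose in WT cells.

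Of 17 ligands and ligand enzymes, 8 were tested, with 3 higher and 2 lower in WT cells with each stimulus, where 64.6% and 61.2% of all genes were called. Spns2, a transporter that exports sphingosine 1-phosphate, was at 15.6, 9.86 and 11.6 RPKM at rest, 0.665, 0.491 and 0.891 RPKM with anti-IgM and 2.82, 1.64 and 3.35 RPKM with LPS in WT cells. Its log2 fold change was -4.19 with anti-IgM and -2.25 with LPS. Cxcl10 rose by 6.36 with LPS in WT cells and by 5.64 in Ubqln1-/- cells. Ccl19, Ccl20 and Ccl21a, ligands of CCR7 and CCR6, had 0 counts in every library.

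**Figure D5:**
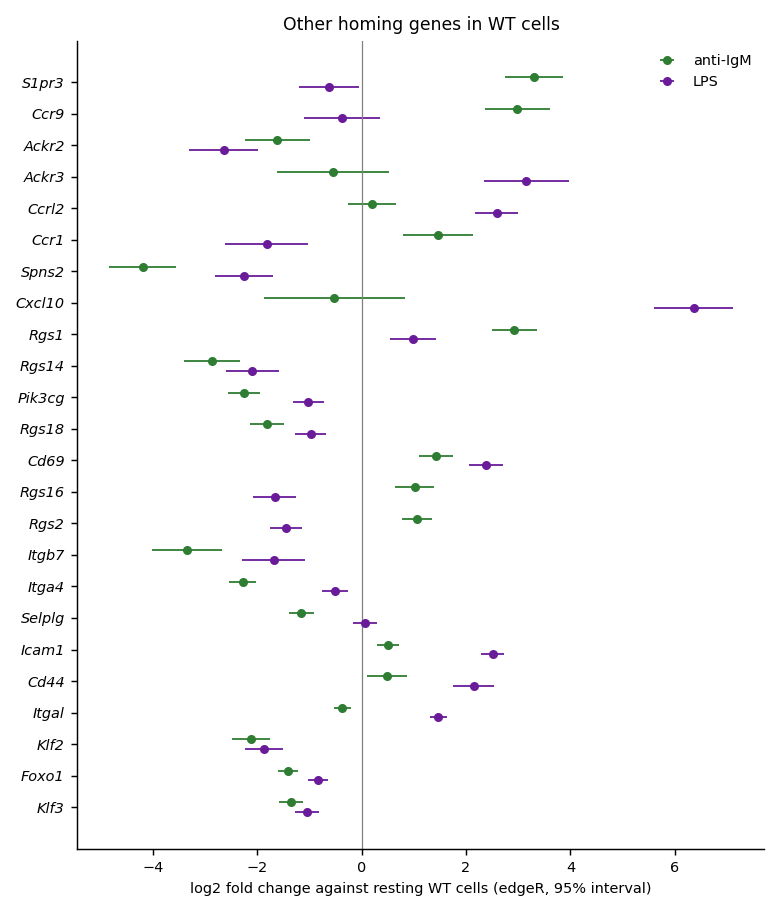
Log2 fold change against resting WT cells, with its 95% interval, of genes named by rule from 5 lists of homing genes, with anti-IgM and with LPS. Klf2, Klf3, Foxo1, Itga4, Itgb7 and Spns2 lie below 0 with both stimuli, and S1pr3 lies above 0 with anti-IgM.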

How the data were processed

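RNASeq was analysed in 18 libraries of splenic B cells. Per the labels and methods, reads (single end, unstranded kit) were aligned to GRCm38 with GSNAP, and limma in R 3.2.2 was used by the authors. The counting program and annotation release are not given in the sources used here. The authors deposited a raw count per Entrez gene over its exons, with the exon width, and an RPKM value. The deposited RPKM was used only as an alternative level. RPKM printed here was computed from the count, the width and the TMM-scaled library size. Samples labelled without a number stand beside numbers 2 and 3 and were called replicate 1.

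The counts were fitted with edgeR 4.0.16 (TMM, expression filter, quasi-likelihood test) in R 4.3.3 over all 18 samples with one term per group. Adjusted p-values are Benjamini-Hochberg over 14161 genes, with a threshold of 0.05. The standard error is the log2 fold change over the square root of F. The alternatives were limma 3.58.1 with voom, DESeq2 1.42.0, RLE factors, no filter, at least 10 counts in every sample, a replicate block, only the compared groups, stricter fold cut-offs, and leaving out each library. The scripts were tested on simulated data. Positions come from RefSeq (GRCm38.p6), and strand and overlapping exons from GENCODE on the same build.

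The receptors and lists were chosen with earlier results of these data known. Genes named from a list had an adjusted p under 0.05, a log2 fold change beyond 1 in size and a mean of at least 1 CPM, with at most 4 per list and response. Cd69, Klf2, Foxo1, Rgs1, S1pr2 and Ubqln1 were always eligible. Some genes that this rule selects are not reported here. Likeness used log2 CPM with a prior count of 2. Intervals cover the spread between libraries.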

Additional observations from a re-analysis of the deposited data

How the results depend on the processing

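S1pr1, S1pr4, Gpr183, Ccr7 and Cxcr4 with LPS, S1pr1, S1pr4 and Gpr183 with anti-IgM, and Cxcr5 with LPS kept their call against resting cells under every alternative fit and every left-out library. At the study cut-offs the receptors called numbered 1 in WT and 1 in Ubqln1-/- cells with anti-IgM, 2 and 2 with LPS, and 0 and 0 for LPS against anti-IgM. At an absolute log2 fold change over 1 they numbered 4 in Ubqln1-/- cells with anti-IgM, the same receptors as in WT cells. For LPS against anti-IgM they numbered 3 and 3. Leaving out 1 library gave 4 to 6 in Ubqln1-/- cells with anti-IgM, with 4 without the second resting or the second anti-IgM library. The ranges were 4 to 6 in WT cells with anti-IgM (4 without the second anti-IgM library), 6 to 7 and 6 with LPS in WT and Ubqln1-/- cells, and 4 to 5 (4 without the third anti-IgM library) and 4 for LPS against anti-IgM.

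The libraries are described as independent experiments, and the study used paired tests for some genes, but the labels do not say that a number marks an experiment. Deviations of the 45 same-numbered pairs had a mean r of 0.266 (0.0550 to 0.516), 43 were over 0.1, and all 18 samples correlated best with their own number, a hint from the data. The replicate block called Ccr6 with anti-IgM in WT cells (0.73) and gave the other calls printed above. Between genotypes it called no receptor, and its lowest adjusted p was that of Ccr6 with LPS (-0.45, adjusted p = 0.0781). Over all 14161 tested genes it called 49 at rest, 94 with anti-IgM and 125 with LPS between genotypes. Without the block these were 8, 14 and 6. Within same-numbered libraries, Ubqln1-/- cells were lower in 3 of 3 for Ccr6 at rest and with LPS and S1pr1 with each stimulus. The same held for Gpr183 with anti-IgM and Cxcr5 with LPS. Ubqln1-/- cells were higher in 3 of 3 for S1pr4 with each stimulus and Cxcr5 at rest and with anti-IgM. Signs were mixed for every other pairing of receptor and condition. With 3 libraries, signs can readily agree without a difference, and such agreement was not counted over all genes. Only signs of differences near 0 turned: S1pr4 between genotypes at rest was -0.0063 with DESeq2, -0.0061 with RLE, -0.012 with no filter and -0.00055 with the replicate block. Gpr183 between genotypes with LPS was 0.00052 with limma-voom and 0.00017 with the block. The anti-IgM interaction of Ccr7 was 0.00058 with DESeq2, 0.00092 with RLE, 0.023 with no filter and 0.0052 with only the compared groups, and that of Cxcr4 was -0.00043 with limma-voom and -0.0039 with the block. The LPS interaction of Cxcr4 was 0.0011 with DESeq2, 0.0012 with RLE and 0.011 with no filter. The cause was not tested.

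Leaving out 1 library also turned signs, in ranges that include 0. Cxcr3 between LPS and anti-IgM in WT cells ran from -0.18 to 1.26, below 0 without anti-IgM library 1 or LPS library 3. Between genotypes at rest the ranges were -0.18 to 0.061 for Ccr7, -0.11 to 0.12 for Cxcr4, -0.032 to 0.099 for Cxcr5, -0.20 to 0.021 for S1pr1, -0.10 to 0.078 for S1pr4 and -0.23 to 0.025 for Gpr183. With anti-IgM they were -0.51 to 0.19 for Ccr6, -0.17 to 0.052 for Ccr7, -0.91 to 0.36 for Cxcr3, -0.071 to 0.11 for Cxcr4 and -0.055 to 0.25 for Cxcr5. With LPS they were -0.24 to 0.064 for Ccr7, -0.77 to 0.12 for Cxcr3, -0.27 to 0.29 for Cxcr4, -0.096 to 0.036 for Cxcr5, -0.40 to 0.13 for S1pr1 and -0.092 to 0.11 for Gpr183. The anti-IgM interaction ran from -0.14 to 0.56 for Ccr6, -0.12 to 0.14 for Ccr7, -0.40 to 0.94 for Cxcr3, -0.091 to 0.14 for Cxcr4, -0.10 to 0.21 for Cxcr5, -0.18 to 0.066 for S1pr1 and -0.24 to 0.018 for Gpr183. The LPS interaction ran from -0.39 to 0.21 for Ccr6, -0.20 to 0.11 for Ccr7, -0.45 to 0.68 for Cxcr3, -0.30 to 0.26 for Cxcr4, -0.15 to 0.0038 for Cxcr5, -0.33 to 0.20 for S1pr1 and -0.035 to 0.22 for Gpr183. Cxcr3 had 17 to 216 counts per library, and the part of depth in its ranges was not tested.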
